A study of Mus musculus with 12 samples.

Results

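The livers of 4 mice on a high-fat diet (HFD) treated with NM-FGF19 mRNA were compared with those of 4 mice on the same diet treated with a control mRNA. NM-FGF19 is a form of the human gut hormone FGF19 that the series title calls non-mitogenic. The comparison took 8 of the 12 libraries of the series, chosen by the column names of the deposited count table, and the 15274 of 55359 genes that passed a low-count filter. All animals were male C57BL/6NTac mice, described as 24 weeks old in the series text. The HFD had been given for 21 weeks when treatment began, and a second label gives 28 weeks of feeding. Both HFD groups received mRNA in lipid nanoparticles (LNPs) weekly for 6 weeks and stayed on the diet. They were killed 24 hours after the last dose. The columns of the HFD control group carry the name mOX40L, the product of the mouse gene Tnfsf4, while the labels say only that it received a control mRNA. The other 4 libraries came from lean mice on chow given the control mRNA. They shared the model fit and so entered the estimate of spread behind each p-value. Their levels are quoted for scale only. Mice killed before treatment were not analysed here, and LNPs alone or an untreated HFD group are not part of these 3 groups. The labels do not state how animals were caged or dosed, so the p-values measure the spread between these samples only.

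FGF19, and its mouse counterpart FGF15, is released by the ileum when bile acids activate the nuclear receptor FXR. In hepatocytes it binds the receptor FGFR4 with its co-receptor beta-klotho (Klb), signals through the ERK kinases and lowers transcription of Cyp7a1, which begins bile acid synthesis from cholesterol. Hepatocytes also make cholesterol. The enzymes of that pathway are switched on together by the transcription factor SREBP2, which is held inactive in the endoplasmic reticulum when sterols are plentiful.

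The HFD control libraries held 32284438 to 33257260 counts and the NM-FGF19 libraries 26809039 to 30014092. A count of 3, taken as the detection floor, equalled 0.0792 to 0.115 CPM across these 8 libraries. CPM is the usual depth-normalised count, here on library totals scaled by TMM (trimmed mean of M-values), and changes are log2 of NM-FGF19 over HFD control with a standard error. In a principal component analysis of the 8 libraries, HFD control 3 lay farthest out on the first component (38.9% of variance), at -69.7 against -21.3 to 28.5 for the other HFD controls. NM-FGF19 4 lay at -25.6 on it, and the other NM-FGF19 libraries at 26.0 to 45.1. Alb (albumin), the defining product of hepatocytes, took 3.69% ± 0.959 (SD, n = 4) of counts in HFD control and 7.61% ± 1.66 (SD, n = 4) in NM-FGF19. Mitochondrial genes took 4.98% ± 0.496 and 4.99% ± 0.528 (SD, n = 4 each). Fgf15 and Tnfsf4 had 0 counts in HFD control and 2 counts each in 1 NM-FGF19 library. The table lists mouse genes only, so it gives no measure of either delivered mRNA. In bulk liver, fewer cells of a type and less RNA per cell cannot be told apart.

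NM-FGF19 livers differed from HFD control livers in 66 genes, 43 higher and 23 lower, at an adjusted p under 0.05 (edgeR quasi-likelihood F test, Benjamini-Hochberg over all genes tested). These were 0.432% of the genes tested, with 0.282% higher and 0.151% lower. Of the higher genes 34 rose at least 2-fold, and of the lower genes 19 fell at least 2-fold. The list of cholesterol synthesis and SREBP2 targets held 12 of the 43 higher genes, 10 of them enzymes of the pathway. The lower genes included Cyp8b1, which sets the kind of bile acid made, and Csad, an enzyme of taurine synthesis. In all 66 the libraries of the 2 groups did not overlap in CPM, which held for 859 genes (5.62%) among all tested. For scale beside the counts given for gene lists, 4.75% of all genes were higher and 4.20% lower at an unadjusted p under 0.05 (1367 genes, 8.95%, in all). DESeq2 called 1.15% higher and 0.746% lower, and limma voom 0.203% and 0.131%. The median change of all genes was -0.00. Scaled by library totals alone it was -0.13, and the calls then split into 26 higher and 30 lower. The number of calls turned on single libraries. Leaving out HFD control 1 left 9 higher and 9 lower, HFD control 3 left 12 and 10, HFD control 4 left 11 and 10, NM-FGF19 1 left 10 and 8, and NM-FGF19 2 left 15 and 10. Without NM-FGF19 4 there were 26 and 15, without NM-FGF19 3 there were 62 and 18, and without HFD control 2 there were 44 and 34. All 66 genes kept their direction in each of the 19 alternative fits, which groups that do not overlap make nearly certain. Of the 66, 15 kept their call in all 8 fits that left out 1 library. In a fit of only the 8 libraries compared, without the lean livers, 33 of the 66 kept their call.

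**Figure D1:**
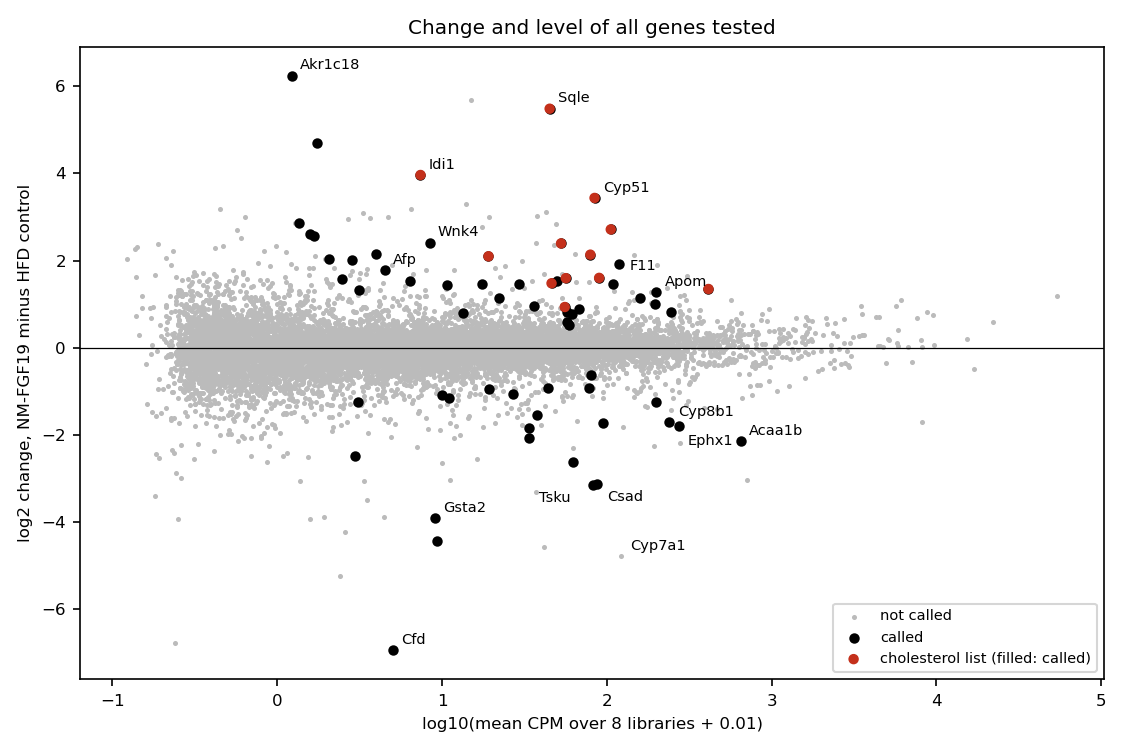
Each point is a gene tested: its log2 change (NM-FGF19 minus HFD control, vertical axis) against log10 of its mean CPM over the 8 libraries plus 0.01 (horizontal axis). Black and red points passed an adjusted p of 0.05. Red points are the 12 of these on the cholesterol list, and all 12 lie above 0.

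Of 15 bile acid synthesis genes tested only Cyp8b1 was called by edgeR, as lower. Cyp7a1 and Cyp27a1, which open the classic and the alternative pathway, lay below the controls in every NM-FGF19 library without passing that test. Cyp7a1 (ENSMUSG00000028240.3), the rate-limiting enzyme of the classic pathway, was at 246, 241, 73.5 and 386 CPM in HFD controls 1 to 4. In NM-FGF19 livers 1 to 4 it was at 5.15, 20.2, 3.28 and 5.70 CPM. Every NM-FGF19 library was thus below the lowest control, which was HFD control 3. Its log2 change was -4.79 ± 0.95, the largest on the bile acid list, and its adjusted p was 0.0672 with edgeR, so it was not called. With DESeq2 the adjusted p of Cyp7a1 was 1.53e-05 and with limma voom 0.0310; over all 19 alternatives it ranged from 1.53e-05 to 0.238 and passed in 4. Without NM-FGF19 2, the highest of its group, the change was -5.65. The lean livers also spread widely for Cyp7a1, with a mean of 171 CPM and an SD of 181 (n = 4).

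Cyp8b1 (ENSMUSG00000050445.5) encodes the sterol 12-alpha-hydroxylase, which directs synthesis to cholic acid. It was at 277, 432, 371 and 389 CPM in HFD control and at 90.8, 82.3, 151 and 123 CPM in NM-FGF19. The groups were well apart, and the lean mean of 382 CPM was close to that of the controls. The log2 change of Cyp8b1 was -1.72 ± 0.22 (adjusted p = 0.00699, edgeR), and the gene kept its call in all 19 alternatives. Cyp27a1, which opens the alternative pathway, was at 357 to 490 CPM in HFD control and 246 to 294 CPM in NM-FGF19 (log2 change -0.66 ± 0.14, adjusted p = 0.0696, edgeR). Cyp7b1, the next enzyme of that branch, ranged from 64.4 to 692 CPM in the controls and 193 to 629 CPM in NM-FGF19 (0.69 ± 0.60, adjusted p = 0.820, edgeR). Of the 15 list genes tested 0 rose and 1 fell, with a median change of -0.11. The enzymes that shorten the side chain and join bile acids to amino acids had small changes, for example Baat at -0.12 and Slc27a5 at -0.11.

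Csad (ENSMUSG00000023044.3) makes hypotaurine, the precursor of the taurine that mouse liver couples to bile acids. It was at 161, 161, 205 and 95.01 CPM in HFD control and 18.1, 9.31, 18.2 and 25.3 CPM in NM-FGF19. The highest NM-FGF19 library was far below the lowest control. Its log2 change was -3.13 ± 0.32 (adjusted p = 0.00487, edgeR), the smallest adjusted p of all genes tested, and Csad was called in all 19 alternatives. It was the only 1 of 17 genes called on the list of methionine, cysteine and taurine metabolism, whose median change was -0.20. Csad overlaps Zfp740 on the opposite strand, and whether counting used strand is not given in the sources used here.

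**Figure D2:**
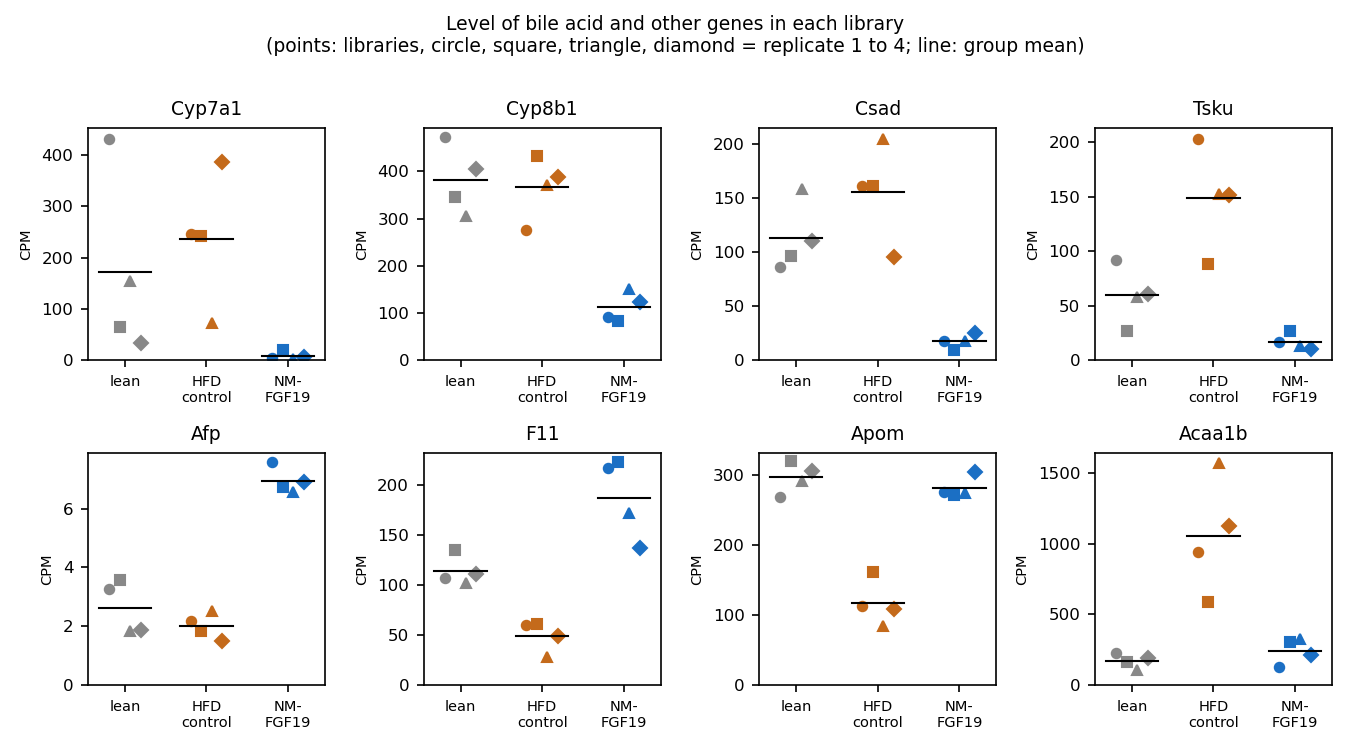
CPM (vertical axes, from 0) in each lean, HFD control and NM-FGF19 library for 8 genes, with the group mean as a line. The 4 NM-FGF19 points of Cyp7a1, Cyp8b1, Csad, Tsku and Acaa1b lie below all HFD control points, and those of Afp, F11 and Apom lie above them.

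Bile acid transporters and the nuclear receptors that sense bile acids were not called. On that list 17 genes were tested, with 0 called, a median change of -0.02, and 2 higher and 4 lower at an unadjusted p under 0.05; DESeq2 and limma voom also called 0. Nr0b2 encodes SHP, a repressor induced by FXR. It was at 22.2, 37.4, 23.4 and 11.8 CPM in HFD control and 54.8, 41.2, 31.7 and 27.2 CPM in NM-FGF19 (0.71 ± 0.52, adjusted p = 0.774, edgeR). The 2 groups overlapped for it. Slc10a1, the main uptake carrier for bile salts, was lowest in HFD control 3 at 164 CPM and ranged from 317 to 481 CPM in the other 7 libraries.

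The receptors were present in every library. Fgfr4 was at 27.2 to 59.2 CPM in HFD control and 30.9 to 48.4 CPM in NM-FGF19 (0.07 ± 0.22, adjusted p = 0.975, edgeR), and its small change turned negative under 5 alternatives. Klb was at 14.8 to 28.0 CPM and 22.8 to 34.97 CPM (0.33 ± 0.24, adjusted p = 0.771, edgeR). Of the 14 genes tested on the list of FGF ligands and receptors 0 were called by edgeR or limma voom and 3 had an unadjusted p under 0.05, all 3 higher. DESeq2 called 1. That gene was Fgfr2, another FGF receptor, at 27.7, 31.3, 29.6 and 25.7 CPM in HFD control and 49.9, 54.5, 47.4 and 50.2 CPM in NM-FGF19. Its groups did not overlap (0.82 ± 0.19, adjusted p = 0.0877, edgeR; 0.00474 with DESeq2 and 0.0959 with limma voom). Fgf21, the fasting hormone that uses the same co-receptor, spread from 0.637 to 7.15 CPM in the controls and from 0.385 to 4.91 CPM in NM-FGF19. Its change of -0.76 ± 0.93 turned positive without HFD control 3 (0.25).

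Genes that ERK signalling is known to induce had 14 positive changes among 18 tested. NM-FGF19 1 to 4 had 7, 10, 10 and 8 of the 18 above the highest control and 3, 2, 4 and 1 below the lowest. The share of all genes beyond the controls in a single library was not counted. By edgeR or limma voom 0 were called, and DESeq2 called 1. At an unadjusted p under 0.05 there were 7 higher and 0 lower, against 4.75% and 4.20% of all genes, the groups did not overlap for 5 (5.62% of all genes in either direction), and the median change was 0.28 (0.14 with library totals alone). Their summed level was 165 to 238 CPM in HFD control and 285 to 472 CPM in NM-FGF19, so the groups did not overlap. In the lean livers it was 151 to 409 CPM, a range that reached into both groups. Spry4, a feedback inhibitor of receptor signalling, was at 14.8, 24.5, 8.51 and 12.5 CPM in HFD control. In NM-FGF19 it was at 36.7, 58.3, 39.7 and 18.2 CPM, with only NM-FGF19 4 inside the range of the controls (1.34 ± 0.43, adjusted p = 0.324, edgeR). Egr1, an immediate early transcription factor, was at 5.38 to 19.7 CPM and 21.4 to 143 CPM (2.39 ± 0.86, adjusted p = 0.418, edgeR). Its lean mean was 85.2 CPM (SD 99.1, n = 4). Spred2, also an inhibitor of the pathway, was at 17.4 to 19.9 CPM and 23.3 to 35.1 CPM (0.57 ± 0.14, adjusted p = 0.117, edgeR; 0.0196 with DESeq2). Dusp6, a phosphatase that inactivates ERK, overlapped between groups (0.28 ± 0.31, adjusted p = 0.883, edgeR). Nab2, a co-repressor of EGR proteins that was on no list, rose. It was at 12.8, 12.9, 16.6 and 12.8 CPM in HFD control and 32.8, 38.9, 22.8 and 26.6 CPM in NM-FGF19. The change was 1.13 ± 0.18 (adjusted p = 0.0156, edgeR), and the call held in 4 of 8 fits without 1 library, being lost without HFD control 1, HFD control 4, NM-FGF19 1 or NM-FGF19 2. Nab2 was named after its value was seen, and it overlaps Stat6 and Nemp1 on the opposite strand.

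The genes of cholesterol synthesis and other SREBP2 targets were higher as a group in 3 of the 4 NM-FGF19 livers. Of 25 tested, 12 rose and 0 fell, where 0.282% of all genes rose and 0.151% fell. All 25 changes were positive and the median was 2.10 (1.96 with library totals alone), against -0.00 for all genes. Called genes spanned the pathway. Mvk acts on mevalonate, Idi1 on isoprenoid units, Sqle and Lss convert squalene to lanosterol, and Cyp51, Tm7sf2, Msmo1, Hsd17b7, Sc5d and Dhcr7 carry lanosterol to cholesterol. Stard4, which moves cholesterol within the cell, and Srebf2, the gene of SREBP2 itself, also rose. NM-FGF19 3 stood apart: 13 of the 25 genes were above the highest control in it and 3 below the lowest, against 25 above in each of the other 3 NM-FGF19 livers. The median deviation from the control mean was 1.95, 2.18, 0.30 and 2.27 on the log2 scale in NM-FGF19 1 to 4. The summed level was 1352 to 1608 CPM in HFD control and 4467, 4568, 1586 and 4587 CPM in NM-FGF19, with 3188 to 4760 CPM in the lean livers. Groups did not overlap for 13 of the 25 genes, against 5.62% of all genes in either direction.

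The number of cholesterol genes called moved most with the libraries in the fit. It was 22 without NM-FGF19 3, 6 without HFD control 2, 5 without NM-FGF19 4, 4 without NM-FGF19 2, 2 without NM-FGF19 1, and 1 without HFD control 1, 3 or 4. It was 21 with DESeq2, 5 with limma voom and 0 without both HFD control 3 and NM-FGF19 4. In the edgeR fit of only the 8 libraries compared, Mvk (adjusted p = 0.0455) and Stard4 (0.0278) kept their call. Lost there were Sqle (adjusted p = 0.0629, edgeR), Idi1 (0.0719), Cyp51 (0.102), Msmo1 (0.112), Lss (0.0818), Dhcr7 (0.0725), Tm7sf2 (0.0762), Hsd17b7 (0.0949) and Sc5d (0.0725). The median change stayed between 1.70 and 2.36 when 1 library was left out. Leaving out NM-FGF19 3 removes the library nearest the controls.

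Sqle (ENSMUSG00000022351.15), squalene epoxidase, changed most on the list. It was at 2.40, 1.36, 2.40 and 1.68 CPM in HFD control, and at 148, 80.2, 7.05 and 117 CPM in NM-FGF19. NM-FGF19 3 was above every control and far below the other treated livers, and the lean mean was 162 CPM (SD 78.4, n = 4). The change was 5.48 ± 0.80 (adjusted p = 0.0161, edgeR), and the call held in 4 of 8 fits without 1 library. It was lost without HFD control 1, 3 or 4 or NM-FGF19 1.

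Idi1, the isomerase of isopentenyl diphosphate, was at 1.27, 0.956, 0.587 and 0.739 CPM in HFD control and 26.5, 11.1, 2.31 and 15.7 CPM in NM-FGF19 (3.96 ± 0.61, adjusted p = 0.0174, edgeR). Its order among the libraries was that of Sqle in having NM-FGF19 3 lowest of the treated. Cyp51, which removes a methyl group from lanosterol, was at 8.58 to 19.8 CPM in HFD control and 234, 122, 24.1 and 236 CPM in NM-FGF19 (3.44 ± 0.58, adjusted p = 0.0294, edgeR). Cyp51 overlaps Akap9 on the opposite strand. Msmo1, the oxidase of the next methyl groups, was at 25.1 to 30.7 CPM and 257, 240, 32.6 and 203 CPM (2.71 ± 0.49, adjusted p = 0.0357, edgeR). Mvk, mevalonate kinase, was at 8.18, 6.84, 7.52 and 6.42 CPM and 41.3, 36.8, 11.97 and 33.9 CPM (2.10 ± 0.31, adjusted p = 0.0148, edgeR). Of these genes Cyp51 and Msmo1 kept their call in 1 of 8 fits without 1 library, the fit without NM-FGF19 3, while Mvk kept it in 3 and Idi1 in 5.

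Stard4 was the only cholesterol list gene to keep its call in all 8 fits without 1 library. It was at 52.8, 46.4, 33.6 and 45.1 CPM in HFD control and 141, 172, 78.3 and 149 CPM in NM-FGF19 (1.60 ± 0.23, adjusted p = 0.00786, edgeR). Srebf2 had the smallest change among the 12, from 33.2 to 40.2 CPM in the controls to 92.3, 75.5, 46.9 and 76.7 CPM (0.93 ± 0.17, adjusted p = 0.0312, edgeR). The other called members changed by 2.39 for Lss, 2.13 for Dhcr7, 1.60 for Tm7sf2, 1.48 for Hsd17b7 and 1.35 for Sc5d. Tm7sf2 overlaps Vps51 on the same strand.

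**Figure D3:**
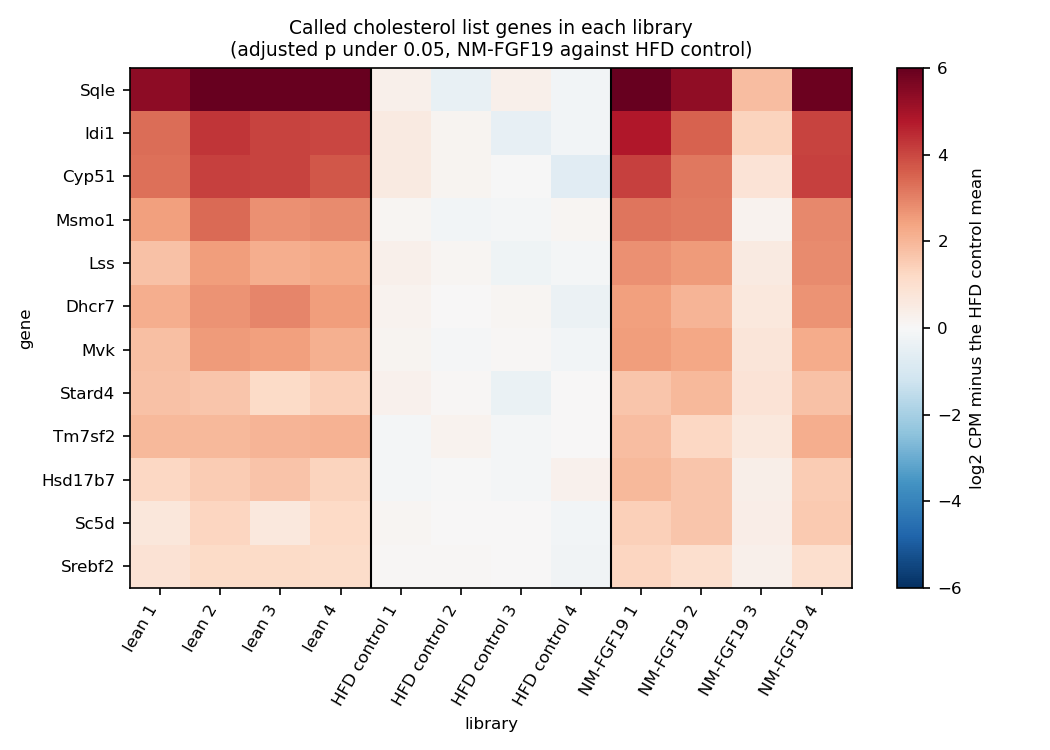
Log2 CPM minus the HFD control mean (colour, from -6 to 6) of the 12 called cholesterol list genes (rows, ordered by change) in each of the 12 libraries (columns). NM-FGF19 1, 2 and 4 and the lean livers are red in most rows, while NM-FGF19 3 stays nearer the colour of the controls.

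Promoter sequence is shown for Mvk, Idi1 and Msmo1, called genes from early and late steps of the pathway. SREBP2 is known to act together with NF-Y, whose motif is CCAAT. The RefSeq windows of build GRCm38.p6, from 250 bases before to 50 after each annotated start, were searched on both strands. A window was found for 10 of the 12 called genes, and all 10 held CCAAT in at least 1 window, Dhcr7 in 1 of its 3. Among the 25 list genes 16 of the 17 with a window held it in at least 1, against 41.1% of all 27025 genes with a window. By window it was in 16 of the 20 of these list genes and in 37.4% of all 32851. TCACNCCAC, a form of the sterol element, was in 0 of the 10 called genes, in 1 of the 17 and in 1.44% of all genes with a window. Neither motif contains the other, and a match is a description only. The 250 bases before the start are printed 5′ to 3′ on the strand of the gene, with CCAAT or its complement ATTGG in capitals. They cover chr5:114444019-114444268 (+) for Mvk, chr13:8885356-8885605 (+) for Idi1 and chr8:64733579-64733828 (-) for Msmo1.
Mvk: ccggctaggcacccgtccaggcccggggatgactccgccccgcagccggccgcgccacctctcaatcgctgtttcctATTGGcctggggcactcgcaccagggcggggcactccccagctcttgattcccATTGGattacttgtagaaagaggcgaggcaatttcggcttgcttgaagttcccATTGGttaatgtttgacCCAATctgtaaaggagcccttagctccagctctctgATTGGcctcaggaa
Idi1: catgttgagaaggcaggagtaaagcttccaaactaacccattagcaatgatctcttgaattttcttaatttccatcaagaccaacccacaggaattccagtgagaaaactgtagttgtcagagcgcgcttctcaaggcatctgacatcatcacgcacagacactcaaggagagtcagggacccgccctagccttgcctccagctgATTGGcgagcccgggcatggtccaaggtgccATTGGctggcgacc
Msmo1: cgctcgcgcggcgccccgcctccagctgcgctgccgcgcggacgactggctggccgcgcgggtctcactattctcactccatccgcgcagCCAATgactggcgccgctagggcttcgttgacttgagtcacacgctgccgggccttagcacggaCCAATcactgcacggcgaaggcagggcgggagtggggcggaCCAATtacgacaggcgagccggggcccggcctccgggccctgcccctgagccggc
The Mvk stretch holds 5 matches, beginning 173, 120, 67, 50 and 14 bases before the start. The Idi1 stretch holds 2, at 45 and 14 bases, and the Msmo1 stretch 3, at 160, 96 and 55 bases. The Mvk window shares 259 bases with that of Mmab, a cobalamin adenosyltransferase gene that points the other way. Mmab also rose, from 12.7 to 17.0 CPM in HFD control to 50.4, 55.6, 28.4 and 36.7 CPM in NM-FGF19 (1.46 ± 0.27, adjusted p = 0.0339, edgeR; called in 1 of 8 fits without 1 library, that without NM-FGF19 3). Mmab was picked once its value was known.

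Genes of secreted plasma proteins were among those higher with NM-FGF19. F11, coagulation factor XI, was at 59.7, 61.1, 28.2 and 48.5 CPM in HFD control and 216, 222, 172 and 137 CPM in NM-FGF19. Its groups were far apart, and both the treated mean of 187 CPM and each treated library exceeded the lean mean of 113 CPM (1.92 ± 0.23, adjusted p = 0.00699, edgeR). Apom, an apolipoprotein of HDL, was at 113, 161, 85.0 and 108 CPM and 276, 272, 275 and 305 CPM, near the lean mean of 297 CPM (1.27 ± 0.17, adjusted p = 0.00745, edgeR). Afp, alpha-fetoprotein, which is abundant in fetal liver and in some liver tumours, was low in all groups. It was at 2.19, 1.85, 2.51 and 1.51 CPM in HFD control, 7.60, 6.73, 6.55 and 6.92 CPM in NM-FGF19, and 2.63 CPM on average in lean livers (1.78 ± 0.25, adjusted p = 0.00786, edgeR). F11, Apom and Afp were called in all 19 alternatives. Afm, afamin, the gene next to Afp, rose by 1.01 ± 0.19 (adjusted p = 0.0312, edgeR; called in 2 of 8 fits without 1 library, those without NM-FGF19 3 or 4). Itih5, an inter-alpha-trypsin inhibitor chain, rose by 1.47 ± 0.21 (adjusted p = 0.00939, edgeR), lost only without HFD control 1 among those fits. Afp overlaps Gm43449 and Afm overlaps Gm42109, both on the opposite strand.

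Alb lies on the other side of Afp. It was at 27324, 24364, 39306 and 41960 CPM in HFD control and 68244, 92798, 55021 and 84801 CPM in NM-FGF19 (1.18 ± 0.24, adjusted p = 0.0598, edgeR; 3.49e-05 with DESeq2; up to 0.208 over the alternatives). On the list of oncofetal and liver tumour markers Afp was the only 1 of 13 called, and the median change was 0.25. On the list of hepatocyte markers, which are plasma proteins in large part, 0 of 12 were called by edgeR or limma voom, 4 had an unadjusted p under 0.05, all higher, and DESeq2 called 4. Its summed level did not overlap, at 52793 to 75340 CPM in HFD control and 91473 to 140938 CPM in NM-FGF19. The part of this shift in the changes of F11, Apom and Afp was not tested.

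The other higher genes had varied functions. Hao1, the glycolate oxidase of peroxisomes, was at 151 to 202 CPM in HFD control and 290 to 336 CPM in NM-FGF19 (0.81 ± 0.13, adjusted p = 0.0174, edgeR). Bco1, which cleaves beta-carotene to retinal, rose by 1.44, Prdx4, a peroxiredoxin of the endoplasmic reticulum, by 0.59 and Grb14, an adaptor that binds the insulin receptor, by 0.51. Ces2g, Gstm7 and Cyp2c67 rose by 0.78, 0.82 and 1.14; they have near-identical relatives, so their counts are uncertain. Fars2, a mitochondrial phenylalanine tRNA ligase, was at 24.5 to 24.9 CPM in all controls and 50.1, 52.6, 38.7 and 50.8 CPM in NM-FGF19 (0.96 ± 0.12, adjusted p = 0.00699, edgeR), and it was called in all 19 alternatives. Tmem229a, at 0.724 to 0.909 CPM and 2.88 to 4.12 CPM, was too (2.02 ± 0.26, adjusted p = 0.00699, edgeR). Wnk4, a kinase that regulates ion transport, was at 1.65 to 3.505 CPM and 9.36 to 15.98 CPM (2.41 ± 0.37, adjusted p = 0.0148, edgeR; called in 4 of 8 fits, not without HFD control 1, 3 or 4 or NM-FGF19 1). Akr1c18, a progesterone-metabolising reductase, had 4 counts in all HFD controls together and 273 in NM-FGF19. That is a ratio of 85.7 with an exact 95% counting interval of 33.1 to 317, which covers counting error only (adjusted p = 0.00745, edgeR). NM-FGF19 3 was lowest of the treated for Akr1c18, at 0.401 CPM against 2.18 to 3.65 CPM, and Akr1c18 is also 1 of a family with similar sequences. Bco1, Prdx4, Grb14, Ces2g, Gstm7 and Cyp2c67, like Hao1, lost their call in at least 3 of 8 fits without 1 library, that without HFD control 1 among them. Fars2 overlaps Lyrm4 and Nrn1 on the opposite strand.

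Tsku, Ephx1, Nat8f5, Dop1b and Slc35e3 were lower genes outside bile acid synthesis that kept their call in all 8 fits without 1 library. Tsku (ENSMUSG00000049580.13), tsukushi, is a protein secreted by the liver. It was at 203, 88.1, 152 and 151 CPM in HFD control and 16.6, 26.9, 13.4 and 10.4 CPM in NM-FGF19. All treated livers were below the lean mean of 59.5 CPM as well (-3.15 ± 0.41, adjusted p = 0.00786, edgeR), and the call held in all 8 fits without 1 library. Ephx1, microsomal epoxide hydrolase, was at 401, 294, 659 and 356 CPM and 85.9, 109, 146 and 151 CPM (-1.80 ± 0.25, adjusted p = 0.00786, edgeR). It too was called in all 19 alternatives. The gene beside it, 9130409I23Rik, fell from 5.07 to 27.5 CPM to 0.511 to 1.14 CPM (-4.44 ± 0.60, adjusted p = 0.00870, edgeR; lost without NM-FGF19 1). Nat8f5, of the N-acetyltransferase 8 family and overlapping Nat8f6 on the same strand, was at 4.19 to 6.60 CPM and 0.462 to 1.505 CPM (-2.48 ± 0.33, adjusted p = 0.00745, edgeR). Dop1b was at 42.9 to 72.8 CPM and 15.2 to 26.4 CPM and Slc35e3 at 22.8 to 28.3 CPM and 11.3 to 14.5 CPM, and they fell by 1.55 and 0.96 on the log2 scale. Adam11, at 60.9 to 141 CPM and 7.77 to 38.2 CPM, and Clstn3, at 26.3 to 75.9 CPM and 7.76 to 19.8 CPM, encode cell surface proteins and fell by 2.61 and 2.06. Adam11 kept its call only without NM-FGF19 3 and Clstn3 only without HFD control 2 or NM-FGF19 4, among those 8 fits.

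Gsta2, a glutathione S-transferase, was at 14.5, 4.63, 27.2 and 21.8 CPM in HFD control and 0.579, 1.19, 1.47 and 1.28 CPM in NM-FGF19 (-3.91 ± 0.65, adjusted p = 0.0266, edgeR). Aox1, aldehyde oxidase, was at 87.2 to 128 CPM and 45.2 to 59.0 CPM (-0.92 ± 0.16, adjusted p = 0.0221, edgeR). The carboxylesterases Ces1g and Ces1b fell by 1.72 and 1.84. Ces1g kept its call in all 8 fits without 1 library, Gsta2 and Aox1 in 2 (those without HFD control 2 or NM-FGF19 3) and Ces1b in 1 (without NM-FGF19 2). The Gsta and Ces1 genes have near-identical copies, so the split of reads among them is uncertain. On the list of drug and xenobiotic metabolism 0 of 19 rose and 1 fell (Aox1), with a median of -0.60, 8 lower at an unadjusted p under 0.05 (4.20% of all genes) and 5 lower by DESeq2 (0.746% of all genes). Cyp3a11, the main drug-metabolising P450 of mouse liver, was at 763, 237, 2607 and 1453 CPM and 102, 101, 168 and 251 CPM. HFD control 2 lay inside the range of the treated livers there (-3.02 ± 0.71, adjusted p = 0.121, edgeR; 0.00154 with DESeq2; named after its value was seen). On the list of the NRF2 antioxidant response Gsta2 was the only 1 of 17 called, with a median of -0.39, 9 lower and 1 higher at an unadjusted p under 0.05 and 3 lower by DESeq2.

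In lipid metabolism the called genes were few. Acaa1b (ENSMUSG00000010651.5), a peroxisomal thiolase induced by PPAR-alpha, was at 943, 589, 1570 and 1123 CPM in HFD control and 124, 304, 323 and 210 CPM in NM-FGF19, with a lean mean of 171 CPM. The groups did not overlap (-2.14 ± 0.36, adjusted p = 0.0221, edgeR), though the call held in only 2 of 8 fits, those without HFD control 2 or NM-FGF19 3. Acaa1b has the close relative Acaa1a and overlaps Dlec1 on the opposite strand. It was the only 1 of 26 called on the list of fatty acid oxidation, with a median of -0.35, 8 lower and 0 higher at an unadjusted p under 0.05 and 3 lower by DESeq2. Chpt1, which makes phosphatidylcholine, fell by 1.24, Gk, glycerol kinase, by 0.62, and Gramd1b, which carries cholesterol from the plasma membrane to the endoplasmic reticulum, by 1.08. Their calls held in 2, 1 and 4 of 8 fits and were lost without HFD control 1, HFD control 4, NM-FGF19 1 or NM-FGF19 2. On the lipid droplet list 0 of 20 were called by edgeR or limma voom, 11 were lower and 0 higher at an unadjusted p under 0.05 (4.20% and 4.75% of all genes), DESeq2 called 6 lower, and the median was -0.63, or -0.36 without HFD control 3. Mogat1, an acyltransferase of triglyceride synthesis, was at 1.53, 0.579, 5.07 and 2.61 CPM and 0.204, 0.231, 0.234 and 0.494 CPM (-3.05 ± 0.67, adjusted p = 0.0780, edgeR). Cidea, a droplet protein that fatty livers acquire, was at 8.28, 0.348, 58.1 and 13.4 CPM in HFD control. In NM-FGF19 it was at 1.23, 0.385, 0 and 8.04 CPM. The groups overlapped through HFD control 2 alone, which lay below NM-FGF19 1, 2 and 4 (-3.04 ± 1.37, adjusted p = 0.558, edgeR).

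De novo lipogenesis was mixed. Of 21 genes tested 0 were called by edgeR or limma voom, the median was 0.19, and 6 were higher and 4 lower at an unadjusted p under 0.05 (4 and 1 called by DESeq2). Fasn, fatty acid synthase, was at 89.2 to 247 CPM in HFD control and 350, 451, 127 and 533 CPM in NM-FGF19, with NM-FGF19 3 again lowest of the treated (0.98 ± 0.48, adjusted p = 0.601, edgeR). Scd1, the stearoyl-CoA desaturase, went the other way, at 13959, 5336, 21444 and 9497 CPM and 1627, 3351, 3314 and 7088 CPM (-1.71 ± 0.50, adjusted p = 0.233, edgeR). G6pc, which releases glucose from the liver, was at 240, 633, 152 and 249 CPM and 100, 22.1, 86.9 and 59.5 CPM (-2.25 ± 0.56, adjusted p = 0.158, edgeR; 0.00924 with DESeq2). On the list of glucose and glycogen metabolism 0 of 22 were called and 2 were lower and 0 higher at an unadjusted p under 0.05; DESeq2 called 1 lower and limma voom 0.

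**Figure D4:**
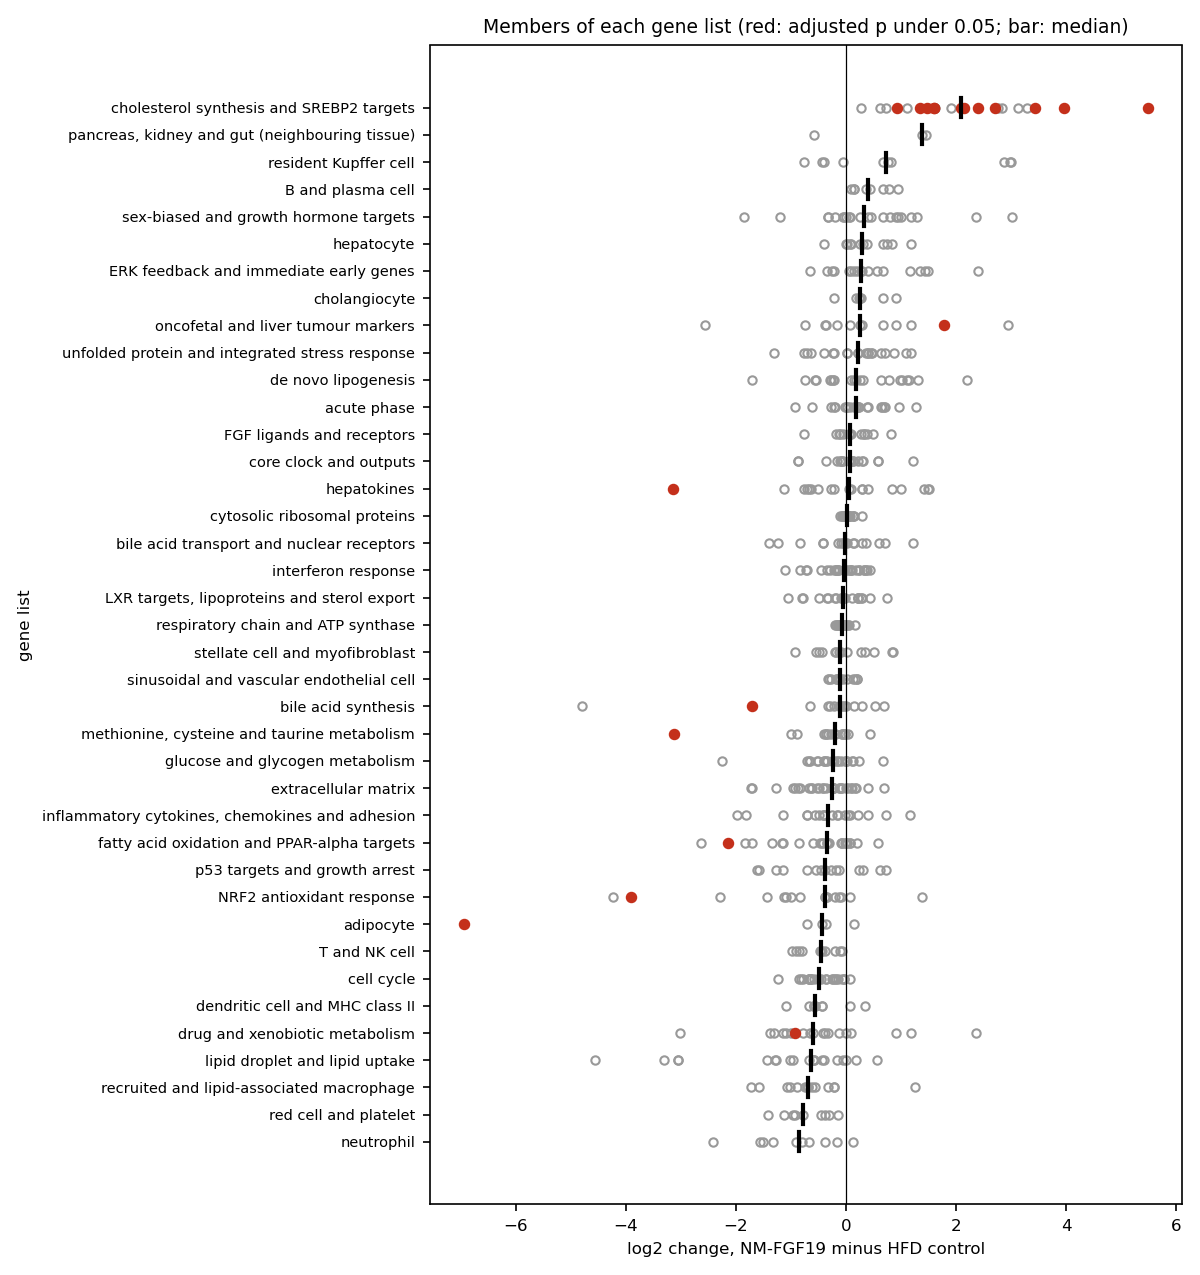
Log2 change (NM-FGF19 minus HFD control, horizontal axis) of each tested member of the 39 gene lists (rows, ordered by median); red points passed an adjusted p of 0.05 and black bars are medians. The cholesterol list, with 12 red points and a median of 2.10, lies farthest to the right, and each other list has at most 1 red point.

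Fibrosis, inflammation and proliferation genes were not called, and libraries within each group spread widely. Of 32 extracellular matrix genes 0 were called by edgeR, DESeq2 or limma voom, with a median of -0.25 and 3 lower and 0 higher at an unadjusted p under 0.05, where 4.20% of all genes were lower. Col1a1, the main fibrillar collagen, was at 96.9, 63.4, 220 and 49.0 CPM in HFD control and 46.4, 21.2, 19.3 and 138 CPM in NM-FGF19 (-0.94 ± 0.66, adjusted p = 0.752, edgeR). HFD control 3 and NM-FGF19 4 were the high libraries of their groups for Col1a1. Ccl2, a monocyte chemokine, was at 3.11, 1.33, 7.76 and 1.25 CPM and 0.954, 0.462, 0.401 and 1.98 CPM (-1.82 ± 0.68, adjusted p = 0.425, edgeR). The lists of inflammatory cytokines (20 tested) and the interferon response (29 tested) had 0 calls by edgeR and limma voom. They had 0 higher and 3 lower, and 3 and 3, at an unadjusted p under 0.05, while DESeq2 called 0 and 1. Of 25 cell cycle genes 0 were called by any of the 3 tools, 1 was lower and 0 higher at an unadjusted p under 0.05, and the median was -0.50, or -0.16 without HFD control 3. Mki67, a marker of dividing cells, was at 6.57 to 10.6 CPM in HFD control and 4.23, 4.46, 4.68 and 10.1 CPM in NM-FGF19 (-0.64 ± 0.40, adjusted p = 0.710, edgeR).

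Among cell type markers only Cfd was called. Cfd, adipsin, is made by fat cells and is also induced in fatty liver. It had 1492 counts in HFD control (21.1, 0.753, 10.8 and 7.499 CPM) and 9 counts in NM-FGF19 (0, 0.0385, 0 and 0.264 CPM). The ratio of HFD control over NM-FGF19 was 132, with an exact 95% counting interval of 69.4 to 289 (adjusted p = 0.0294, edgeR). The call held in 2 of 8 fits, those without HFD control 2 or NM-FGF19 4, and the fitted change of -6.94 became -6.30 without HFD control 1 and -9.29 without NM-FGF19 4. The defining fat cell genes Plin1 and Lep had a mean of 0 CPM in HFD control, Adipoq of 0.0145 CPM and Retn of 0.0267 CPM. The 10 genes of the adipocyte list summed to 3126 to 6810 CPM in HFD control and 2828 to 3968 CPM in NM-FGF19, most of it from Car3 and Pck1, which hepatocytes also express.

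Markers of resident Kupffer cells, the long-lived liver macrophages, had a median change of 0.72 over 10 genes, or 0.27 without NM-FGF19 3. By edgeR and limma voom 0 were called, 4 were higher and 0 lower at an unadjusted p under 0.05, and DESeq2 called 3. Timd4 was at 0.264, 0.348, 0.373 and 0.227 CPM in HFD control and 2.11, 0.462, 6.15 and 0.198 CPM in NM-FGF19, with a lean mean of 13.9 CPM (2.87 ± 0.82, adjusted p = 0.233, edgeR). Marco was at 0.528, 2.84, 0.453 and 0.341 CPM and 6.07, 2.92, 22.4 and 1.85 CPM (3.01 ± 0.91, adjusted p = 0.286, edgeR). NM-FGF19 3 was highest for both, and the 2 groups overlapped for both. Other members went the opposite way: 4 of the 10 changes were negative, the lowest that of Cd5l at -0.76. The summed level overlapped, at 377 to 705 CPM in HFD control and 404 to 897 CPM in NM-FGF19. Markers of recruited and lipid-associated macrophages had a median of -0.69 over 15 genes, or -0.23 without HFD control 3. Of these 0 were called by edgeR or limma voom and 1 lower by DESeq2, with 6 lower and 0 higher at an unadjusted p under 0.05. Their summed level was 902 CPM in HFD control 3, 357 to 444 CPM in the other controls and 232 to 508 CPM in NM-FGF19. The lists of neutrophil, T and NK, B and plasma, dendritic, stellate, endothelial and bile duct cells and of blood and neighbouring tissue also had 0 calls by edgeR or limma voom. DESeq2 called 1 lower neutrophil gene and 1 higher gene of neighbouring tissue. Changes were negative for 9 of 10 neutrophil, 11 of 11 T and NK, 9 of 11 dendritic and 9 of 9 blood genes tested. They were positive for 8 of 8 B and plasma and 7 of 8 bile duct genes. Stellate (6 positive, 8 negative) and endothelial genes (5 and 10) were mixed. The median deviation of the neutrophil genes from the control mean was -0.88, -1.73, -1.84 and 0.37 on the log2 scale in NM-FGF19 1 to 4. The neighbouring tissue list (pancreas, kidney and gut) had 3 of 11 genes tested and 5 at 0 counts in all 8 libraries, among them the pancreatic genes Cpa1, Pnlip and Amy2a5. Its summed level was 34.6 to 35.1 CPM in HFD control and 44.7 to 77.7 CPM in NM-FGF19, most of it from Lgals4 and from Cela1, an elastase (12.2 to 25.6 CPM and 23.2 to 67.0 CPM).

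**Figure D5:**
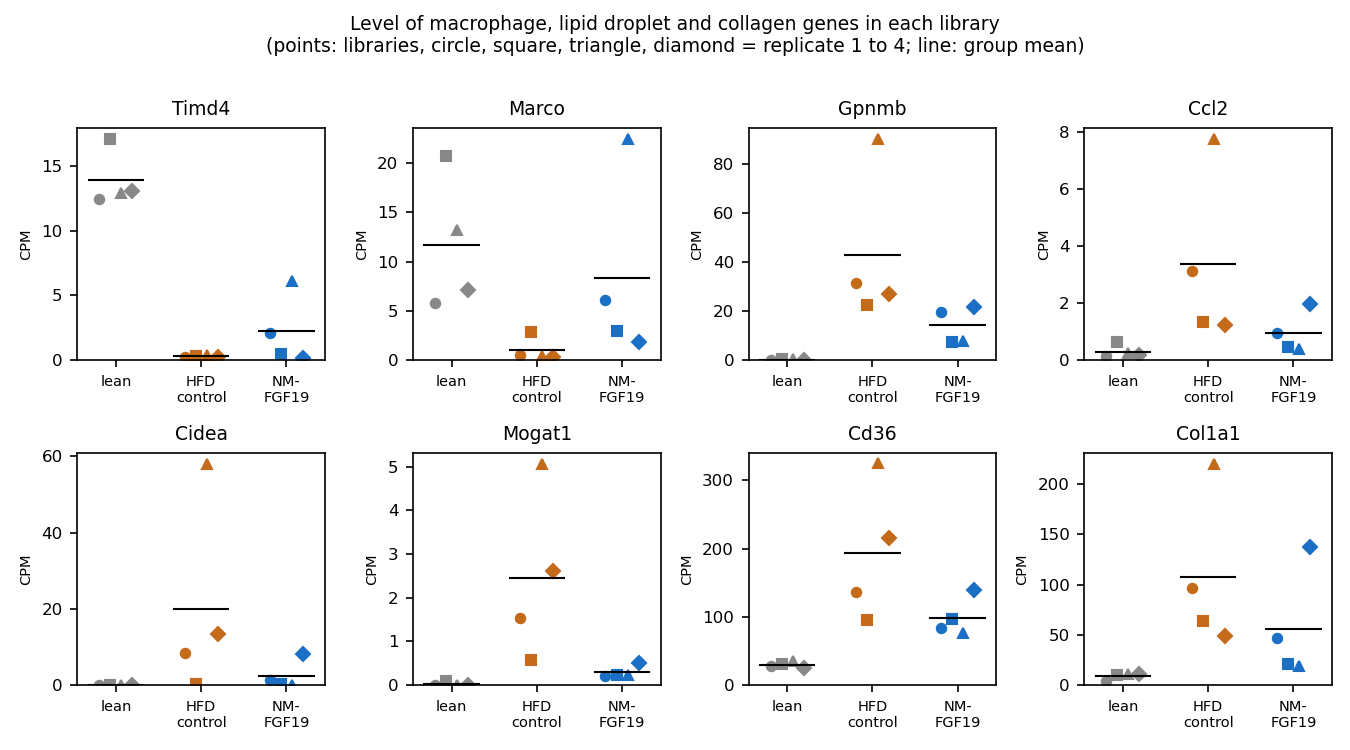
CPM (vertical axes, from 0) in each lean, HFD control and NM-FGF19 library for 8 macrophage, lipid droplet and collagen genes, with the group mean as a line. HFD control 3 (triangle) is the highest HFD control for Gpnmb, Ccl2, Cidea, Mogat1, Cd36 and Col1a1, and NM-FGF19 3 is the highest treated liver for Timd4 and Marco.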

How the data were processed

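Stranded mRNA libraries, built from 100 ng of liver RNA each, were read as 101-nt pairs on a NextSeq2000, per the labels' protocols. The authors deposited raw read counts for 55359 genes, made with Trimmomatic, STAR and featureCounts against mm39, per the submitters' processing notes. The sources used here give no version, annotation or strand mode, and genes that overlap can share reads. Symbols were matched for 52083 gene IDs; the other 3276 hold 0.515% of counts. All columns matched labels, and 0 were unused.

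Genes passing filterByExpr of edgeR 4.0.16 (minimum count 10; R 4.3.3) were tested with the robust quasi-likelihood F test on TMM-scaled counts, 2-sided. The fit held all 12 libraries and a term for group alone; the spread was thus shared by the 3 groups. The standard error is the one implied by F. The script was tested on simulated data. DESeq2 1.42.0, limma 3.58.1 voom, other scalings, filters and left-out libraries were alternatives. Replicates correlated at 0.946 to 0.980 and their chi-square per degree of freedom was at least 56.4, so they differed beyond counting error.

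Lists (26 of pathways, 13 of cell types), members and tests were chosen with earlier results of these data known. Genes named are the 12 highest and 12 lowest called changes (mean of at least 2 CPM, groups not overlapping, informative symbol), a fixed set (Cyp7a1, Cyp8b1, Cyp27a1, Cyp7b1, Nr0b2, Nr1h4, Fgf15, Fgf21, Fgfr4, Klb, Dusp6, Spry4, Egr1, Ccnd1, Tnfsf4, Alb, Col1a1, Timp1, Cidea, Cd36, Fasn, Scd1, Afp, Mki67, Tsku), up to 4 called members per list the way most moved and 2 the opposite way (or the 2 smallest p-values), and the 10 smallest adjusted p-values; Cyp3a11, Fst, Akr1c18, Hsd17b7, Itih5, Mmab, Bco1, Sc5d, Srebf2, Cyp2c67, Nab2, Afm, Gstm7, Hao1, Ces2g, Prdx4, Grb14, Gk, Gramd1b, Chpt1, Slc16a13, Slc15a4, Klk1b4, 9130409I23Rik and the uncalled Baat, Cd5l, Slc27a5, Car3, Pck1, Plin1, Lep, Adipoq and Retn were named after their values were seen. Uncalled genes that the rule takes are not all printed, and some are not reported here. Positions of neighbours and overlaps come from an annotation of an older build, and no coordinates were mixed.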

Additional observations from a re-analysis of the deposited data

Results flagged for a closer look

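For each gene named in the report or called, the 4 libraries of a group were checked for 1 that stood apart, taken as a gap to the nearest other library that, over the range of the group, passed the critical value of Dixon's test at 95% for 4 samples. Of 310 groups of 4 libraries, 17 had such a library; chance flags about 1 in 20 groups. No explanation was tested for any of them.

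In the NM-FGF19 group, 4 were in NM-FGF19 3, which was low for 3 genes of cholesterol synthesis and for Fars2. Lss was at 24.6 CPM in it against 96.9 to 121 CPM in the other treated livers, Msmo1 at 32.6 against 203 to 257 CPM, and Mvk at 11.97 against 33.9 to 41.3 CPM. Fars2 was at 38.7 against 50.1 to 52.6 CPM. NM-FGF19 4 had 4: Apom was high at 305 CPM, Mki67 at 10.1 CPM and Mogat1 at 0.494 CPM, and Wnk4 was low at 9.36 CPM.

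In the HFD control group, 5 were in HFD control 3, which was low for the bile salt carrier Slc10a1 at 164 CPM and for Klb at 14.8 CPM. It was high for the ribosomal protein gene Rps6 at 97.7 CPM, for Nab2 at 16.6 CPM and for the transporter Slc16a13 at 5.76 CPM. HFD control 1 was low for the gluconeogenic enzyme Fbp1 at 772 CPM and high for Ces2g at 48.4 CPM. HFD control 4 was low for the ERK phosphatase Dusp4 at 1.85 CPM and for Srebf2 at 33.2 CPM.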

How the results depend on the processing

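The 66 called genes kept their direction in all 19 alternatives, which was nearly certain because their groups did not overlap in CPM. The counts of calls moved by over 1.5 times in many. DESeq2 called 175 higher and 114 lower, scaling by library totals alone 26 higher, only the 8 libraries compared 23 and 15, leaving out lean 3 and HFD control 3 24 and 14, and leaving out HFD control 3 and NM-FGF19 4 (chosen after seeing the data) 10 and 8. Leaving out 1 library gave 9 to 62 higher and 8 to 34 lower. The cause was not tested. Of the 66, DESeq2 also called 66, limma voom 47 and the fit of only the 8 libraries compared 33. Klk1b4 and Slc15a4 kept their call in no fit without 1 library. Replicate numbers did not pair the libraries: deviations of same-numbered libraries correlated at 0.02, -0.08, -0.36 and -0.08, and 0 of 4 correlated best with their own number. With the replicate block there were 12 higher and 6 lower calls.

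The sign of 4 uncalled genes reversed. Fgfr4 was at -0.057 with library totals alone and -0.083 without lean 3 and HFD control 3, and ranged from -0.077 (without HFD control 3) to 0.33 when 1 library was left out. Ccnd1 was at -0.052 with library totals alone and ranged from -0.094 to 0.20 in those fits, Fgf21 from -2.23 to 0.25 and Rps6 from -0.022 to 0.20. Without lean 3 and HFD control 3 Fgf21 was at 0.25. Among called genes Adam11 moved by over 1.5 times, to -3.34 without NM-FGF19 3, as did Cfd, to -9.29 without NM-FGF19 4 and -6.30 without HFD control 1.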

Other observations

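Of the 63 called genes that are protein coding, 4 pairs were next to each other on a chromosome. Afp and Afm both rose, as did Mvk and Mmab, and Ephx1 and 9130409I23Rik both fell. In the fourth pair Cyp8b1 fell by 1.72 while its neighbour Fam198a rose by 2.14 on the log2 scale (adjusted p = 0.0318, edgeR). Fam198a was at 1.40, 1.36, 1.95 and 1.14 CPM in HFD control and 6.41, 3.42, 5.25 and 10.8 CPM in NM-FGF19, and its call held in 2 of 8 fits without 1 library.

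Cyp17a1, a steroid hydroxylase that male mouse liver expresses, was at 3.51, 4.95, 13.9 and 10.8 CPM in HFD control and 78.7, 108, 27.0 and 55.3 CPM in NM-FGF19. The groups did not overlap, and the lean mean was 51.9 CPM (3.02 ± 0.68, adjusted p = 0.107, edgeR; 0.00111 with DESeq2 and 0.0638 with limma voom). On the list of sex-biased and growth hormone targets 0 of 22 genes were called by edgeR or limma voom, 2 were higher and 1 lower at an unadjusted p under 0.05, and DESeq2 called 1. Fst, follistatin, a secreted inhibitor of activins, was at 6.20, 10.9, 3.17 and 2.73 CPM in HFD control and 21.7, 13.5, 14.0 and 15.4 CPM in NM-FGF19. All treated libraries were above the highest control and above the lean mean of 4.47 CPM (1.49 ± 0.39, adjusted p = 0.175, edgeR; 0.0115 with DESeq2). Xbp1, a transcription factor of the unfolded protein response, was at 154 to 265 CPM in HFD control and 396, 430, 539 and 274 CPM in NM-FGF19 (1.09 ± 0.30, adjusted p = 0.192, edgeR; 0.0217 with DESeq2). On that list 0 of 21 were called by edgeR or limma voom and 2 by DESeq2, with 2 higher and 1 lower at an unadjusted p under 0.05.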
